A study of Mus musculus with 11 samples.

Results

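The genes described here are the mouse genes whose symbol is Zfp followed only by digits. Of 304 such genes with a probe set named for them alone, 269 had a mean level above the filter of 7.81 intensity units, among 12428 genes measured in all. The filter was the 40th percentile of all normalised values over all arrays. Each gene was read through its brightest probe set, and 1 gene of this naming pattern, a known preadipocyte commitment factor, was left out by the rule. The cells were 3T3-L1 preadipocytes, a mouse fibroblast-like line that can be turned into adipocytes, treated with the t10c12 isomer of conjugated linoleic acid (CLA) or with linoleic acid (LA), the control fatty acid that differs from it in the position and geometry of its double bonds. RNA was hybridised to 11 1-colour expression arrays: 2 CLA and 1 LA array at 4 h, and 2 CLA and 2 LA arrays at 8 h and again at 12 h. Neither a dose nor untreated cells appear in the labels used here, and a further LA array at 4 h, implied by the design text, was not analysed here. Replicates are called biological in the labels but are not tied to separate cultures, so the p-values speak only of the spread between these arrays, which may be technical.

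Most proteins named Zfp carry repeated C2H2 zinc fingers, short loops held by a zinc ion that each read a few bases of DNA, and many also carry a KRAB domain. KRAB domains recruit the corepressor KAP1 (Trim28), which brings histone methyltransferases, HP1 proteins and deacetylases to the bound site. This family silences transposable elements and keeps imprinted methylation, while other members act in RNA binding, translation or as activators, and several steer fibroblasts towards or away from fat. Because RNA of whole cultures was measured, fewer cells of a type and less RNA per cell cannot be told apart.

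At 12 h, 39 of the 269 Zfp genes were higher and 12 were lower in CLA than in LA cells, whereas at 8 h the test called none. The 51 called members are 19.0% of the members, against 18.8% of all 12428 genes, so the share that changed was close to that of the array as a whole. Members called higher made up 14.5% of the members against 9.46% of all genes, and members called lower 4.46% against 9.33%. The median log2 difference of the members was 0.09 in CLA relative to LA cells, while that of all genes was −0.15. Arrays of the 2 fatty acids did not overlap at 12 h for 107 members with CLA higher (20.3% of all genes did so) and 77 with CLA lower (42.4% of all genes). Without any scaling between arrays the medians were 0.58 for the members and 0.28 for all genes, and the split of called members was 76 higher and 0 lower. With arrays scaled to a common median the split was 44 higher and 5 lower, and the medians were 0.125 for the members and −0.173 for all genes. Shares of all genes called under these scalings are not given here, so the splits cannot be set against them. No member called after quantile normalisation changed sign under either scaling. A call here means an adjusted p below 0.05 in limma, with Benjamini-Hochberg adjustment over all 12428 genes.

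The members were dim as a group: their median level over all arrays was 73.2 intensity units (range 7.96 to 1530), against 158.9 for the other genes measured. Zfp622 (1530), Zfp207 (1077), Zfp106 (1064) and Zfp91 (967) had the highest levels, although levels of different probe sets depend on the probes as well as on the RNA. Just inside the filter lay Zfp536 at 8.43 and Zfp708 at 7.96, and just outside it Zfp558 at 7.63 and Zfp941 at 6.12. Among the dimmest 90 members, 10 (11.1%, against 18.8% of all genes) were called at 12 h, all higher in CLA cells. Among the middle 89 the test called 11 higher and 5 lower, 18% in all, and among the brightest 90 it called 18 higher and 7 lower, 27.8% in all.

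Arrays of the same group correlated at 0.970 to 0.978 over genes, and no 2 arrays were identical. Of 10 preadipocyte markers, 9 had a probe set and 8 of these were above the level of the unspiked control probe sets (8.89) on all arrays, with summed levels of 40380 to 43900. Of the adipocyte markers, Adipoq, Lep and Cidec were on average at or below that level, so the list's sum, 208.9 to 236.2 in CLA cells and 231.1 to 239.3 in LA cells at 12 h, came mostly from Fabp4 (mean level 294). Pparg, the main adipogenic receptor, was lower in CLA than in LA cells at 12 h (log2 −1.51, adjusted p 0.0126). It was higher at 12 h than at 8 h in LA cells (1.2004, adjusted p 0.0278). Pparg was dim, at 11.95 to 51.6 units (mean 25.6) against the control level of 8.89. Fabp4 and the preadipocyte marker Pdgfra were lower at 12 h than at 8 h in LA cells (−0.73, adjusted p 0.00293, and −0.63, adjusted p 0.000244). The part of these shifts in the members' differences was not tested. The macrophage marker list summed to 1246 on the LA 4 h array, against 199.8 to 248.8 in CLA cells at 4 h, and to 261.4 to 490.6 in CLA cells against 261.3 to 271.5 in LA cells at 12 h. The 4 h difference came from Csf1r, which reached 1171 units on the LA array (log2 −3.10, adjusted p 0.00715), while Adgre1 (−0.26), Cd68 (0.38) and Lyz2 (0.45) did not pass the test and differed in sign. The macrophage markers Itgam and Ptprc and all 4 endothelial markers were on average at or below the control level.

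The LA arrays at 12 h stood apart from the other 9 arrays. Their median deposited intensities were 11.6 and 10.6, the lowest of the 11 arrays, against 14.7 and 15.8 in CLA cells at 12 h and 12.8 to 20.1 on the remaining arrays. After quantile normalisation the members' median deviation from each gene's mean was −0.09 and −0.05 log2 units on the LA 12 h arrays, while that of the other 12159 genes was 0.16 on both. The members' median minus that of the other genes was 0.01 on both CLA arrays at 12 h, against −0.24 and −0.21 on the LA arrays. The ratio of the 3′ to the 5′ Gapdh probe sets, a sign of RNA integrity, was 0.884 and 0.954 in CLA cells and 0.983 and 1.18 in LA cells at 12 h, and its part in the differences was not tested. An alternative chosen after seeing the data took each array's deposited median as a covariate. With it all 51 members called at 12 h kept their sign, and 1 of them (Zfp449) was called. Their median size was 0.65 rather than 0.99 log2 units. Because the LA 12 h arrays had the lowest medians, this fit cannot tell array intensity from group.

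**Figure D1:**
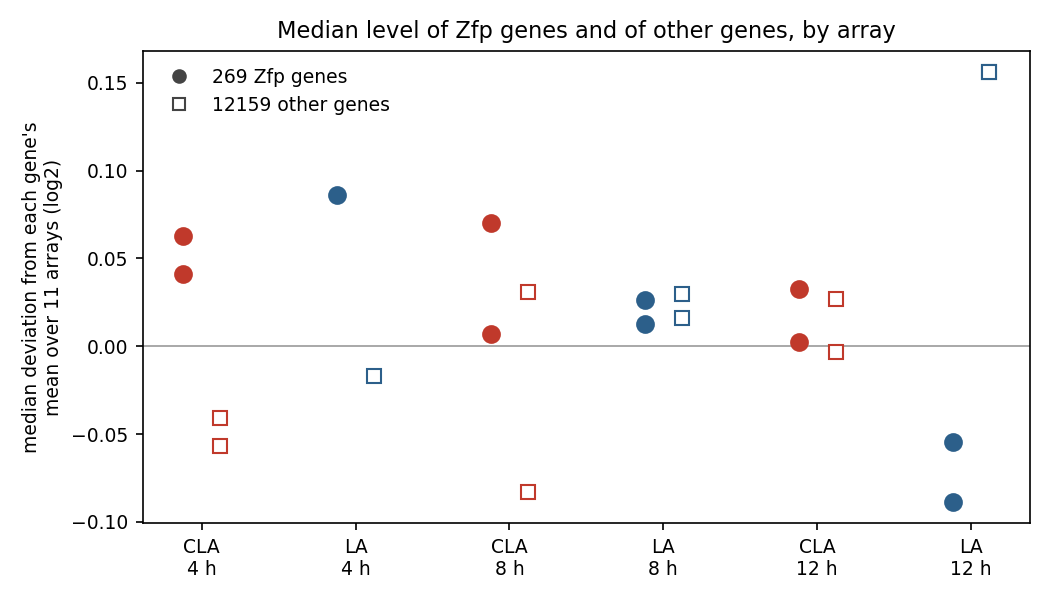
Median log2 deviation from each gene's mean over arrays, for the 269 Zfp genes (filled circles) and the other 12159 genes (open squares), on each of the 11 arrays, with CLA left of LA at each time. On the LA arrays at 12 h the Zfp genes lie at −0.09 and −0.05 and the other genes at 0.16.

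Zfp748, Zfp655 and Zfp449 were the members whose change between 8 and 12 h differed between the fatty acids: each was lower at 12 h than at 8 h in LA cells, while its change in CLA cells did not pass the test. They are 3 of 269 members, or 1.12%, against 1.17% of all genes (145 genes, 1.12% higher and 0.0483% lower). The human counterpart of Zfp655 binds the signalling protein Vav, and the human counterpart of Zfp449 carries a SCAN domain, through which zinc finger proteins pair. Zfp871 and Zfp120 followed them in order of p, with adjusted p of 0.0678 and 0.0895 for the same difference.

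The promoters of Zfp748, Zfp655 and Zfp120 are shown because these genes are among the 5 members with the smallest p for this difference and have 1 RefSeq promoter each. The 250 bases before the start site lie at chr13:67553153-67553402 on the minus strand for Zfp748, at chr5:145231492-145231741 on the plus strand for Zfp655 and at chr2:150136679-150136928 on the minus strand for Zfp120 (RefSeq, GRCm38.p6). Each is written 5′ to 3′ along the gene, and capitals mark matches on either strand to CCAAT (the CCAAT box), CCGGAAG (an ETS core), AAGATGGC (the YY1 core) or ACTACAA (part of the Zfp143 site).
Zfp748: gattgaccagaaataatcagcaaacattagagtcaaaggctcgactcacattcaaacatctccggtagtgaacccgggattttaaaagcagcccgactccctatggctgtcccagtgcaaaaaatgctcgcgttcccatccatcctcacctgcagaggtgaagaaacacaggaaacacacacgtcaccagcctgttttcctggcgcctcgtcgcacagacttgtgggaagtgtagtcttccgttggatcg
Zfp655: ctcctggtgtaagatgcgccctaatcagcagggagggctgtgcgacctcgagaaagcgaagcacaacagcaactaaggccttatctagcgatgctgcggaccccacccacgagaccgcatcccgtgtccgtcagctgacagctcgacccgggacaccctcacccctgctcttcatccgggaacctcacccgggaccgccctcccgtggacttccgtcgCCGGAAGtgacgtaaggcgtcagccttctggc
Zfp120: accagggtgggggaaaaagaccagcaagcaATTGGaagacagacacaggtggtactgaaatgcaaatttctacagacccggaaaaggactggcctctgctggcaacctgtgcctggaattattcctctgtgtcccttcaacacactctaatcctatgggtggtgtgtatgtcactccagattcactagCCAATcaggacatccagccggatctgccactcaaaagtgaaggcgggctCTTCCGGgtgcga
The Zfp748 stretch held no match and 12 CpG dinucleotides. That of Zfp655 held 1 ETS core and 21 CpG dinucleotides, and that of Zfp120 held 2 CCAAT boxes, 1 ETS core on the opposite strand and 5 CpG dinucleotides.

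Zfp748 had 60.6 and 45.4 intensity units in CLA cells at 12 h, against 16.3 and 13.9 in LA cells. Its 8 h arrays held 59.2 and 47.8 in CLA cells and 54.8 and 48.3 in LA cells, and its 4 h arrays 77.6 and 66.5 in CLA cells and 56.6 in LA cells. The LA arrays at 12 h were thus the low ones, and they overlapped no other group. The 12 h difference was 3.21-fold (log2 1.68 ± 0.23, SE, adjusted p 0.00126), and Zfp748 was 3.15-fold lower at 12 h than at 8 h in LA cells (log2 −1.66 ± 0.23, adjusted p 0.000878). In CLA cells the 12 h minus 8 h difference was −0.02 with a 95% interval of −0.52 to 0.48. The difference between these changes was 1.64 ± 0.32 (adjusted p 0.0440).

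Zfp655 had 511.4 and 475.8 units in CLA cells at 12 h, against 257.9 and 294.6 in LA cells. The 8 h values were 660.7 and 521.8 in CLA cells and 587.3 and 606.1 in LA cells, and the 4 h values 626.8 and 613.1 in CLA cells and 623.9 in LA cells. The groups separated at 12 h only, with every LA array below every CLA array. The 12 h difference was 1.78-fold (log2 0.84 ± 0.12, adjusted p 0.00160), the fall from 8 h in LA cells was 2.16-fold (log2 −1.11 ± 0.12, adjusted p 0.000284), and the difference between the changes was 0.86 ± 0.17 (adjusted p 0.0445). In CLA cells the change was −0.25 (95% interval −0.52 to 0.02). The 3 probe sets of Zfp655 disagreed at 12 h, with log2 differences of −0.23 to 1.24. Their changes from 8 to 12 h in LA cells ranged from −1.11 to 0.07.

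Zfp449 had 132.5 and 117.6 units in CLA cells at 12 h, against 46.8 and 45.7 in LA cells. Its 8 h arrays held 141.2 and 112.4 in CLA cells and 103.9 and 101.2 in LA cells, and its 4 h arrays 152.8 and 183.2 in CLA cells and 153.3 in LA cells. Its LA arrays at 12 h held less than any other array. The 12 h difference was 2.64-fold (log2 1.40 ± 0.16, adjusted p 0.000702), Zfp449 fell 2.17-fold in LA cells between 8 and 12 h (adjusted p 0.00108), and the difference between the changes was 1.10 ± 0.23 (adjusted p 0.0460). It was the member that stayed called at 12 h with the array median as a covariate (log2 1.18 ± 0.19, adjusted p 0.0328).

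The interaction calls depended on single arrays, and shares of all genes called without 1 array are not given here. Without CLA 8 h replicate 1, the array with the highest deposited median (20.1), 22 members were called. No member was called without CLA 8 h replicate 2, either LA 8 h array, either CLA 4 h array, LA 12 h replicate 1 or CLA 12 h replicate 1, 1 was called without LA 12 h replicate 2, and 4 without CLA 12 h replicate 2.

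Zfp871 had 667.4 and 531.8 units in CLA cells at 12 h, against 258.9 and 287.7 in LA cells (log2 1.12 ± 0.16, adjusted p 0.00160). Zfp120 had 72.0 and 55.0 units in CLA cells, against 23.2 and 20.9 in LA cells (log2 1.44 ± 0.22, adjusted p 0.00202). In both genes the LA arrays at 12 h lay below every other array.

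Among the largest fitted differences at 12 h were those of dim members whose LA arrays were at or below the level of the control probe sets. Zfp945 had 15.9 and 41.9 units in CLA cells, against 2.16 and 3.14 in LA cells, at least 2.60-fold higher (adjusted p 0.00800). Zfp40 had 7.71 and 18.1 units in CLA cells, against −3.30 and −0.44 in LA cells, at least 1.29-fold higher (adjusted p 0.0136). Zfp850 had 14.9 and 9.60 units in CLA cells, against 3.80 and 0.85 in LA cells, at least 1.29-fold higher (adjusted p 0.0370). These bounds set the LA mean at the control level, so they understate any larger difference.

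Zfp369, also called Nrif2 and known as a relative of a neurotrophin receptor partner, had 52.5 and 36.8 units in CLA cells at 12 h, against −3.22 and 10.4 in LA cells. Its 8 h arrays had 58.4 and 67.8 units in CLA cells and 41.0 and 50.4 in LA cells, so the 12 h LA arrays were the low ones. The fitted difference had an adjusted p of 0.00677, but 1 of the 2 LA arrays was below the control level, and with that array set to this level the difference was 4.00-fold. In the authors' deposited table its ratio at 12 h was 1.41, with an adjusted p of 0.310, so the call was not shared there. Of the 51 calls at 12 h, 36 were shared by that table with the same sign. It called 55 members higher and 5 lower, and 1655 of all 12428 genes higher and 957 lower. The calls of Zfp945, Zfp40 and Zfp850 were not shared either. Among members called lower here, those of Zfp746, Zfp593, Zfp651, Zfp618, Zfp646 and Zfp64 were not shared.

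In Zfp937 and Zfp788 1 of the 2 LA arrays at 12 h stayed above the control level, and in Zfp141 both did. Zfp937 had 33.7 and 35.8 units in CLA cells, against 5.05 and 14.8 in LA cells (adjusted p 0.0153), 2.74-fold with the dimmer LA array set to the control level. Zfp788 had 37.9 and 23.0 units in CLA cells, against 5.60 and 10.9 in LA cells (adjusted p 0.0143), 2.695-fold by the same rule. Zfp141 had 35.3 and 49.97 units in CLA cells, against 11.9 and 12.0 in LA cells (log2 1.67 ± 0.33, adjusted p 0.00704). None of the 3 overlapped between the fatty acids at 12 h.

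The 12 members lower in CLA cells at 12 h differed by smaller amounts, from −0.42 to −0.85 log2 units. Zfp746, whose product PARIS is a substrate of the ubiquitin ligase parkin and represses the gene of PGC-1α, had 97.6 and 103.2 units in CLA cells, against 178.3 and 186.7 in LA cells. It was 1.80-fold lower (log2 −0.85 ± 0.16, adjusted p 0.00592). At 8 h it had 113.5 and 158.2 in CLA cells and 152.1 and 167.6 in LA cells, which overlapped. Its change between 8 and 12 h was −0.41 in CLA cells (adjusted p 0.402) and 0.19 in LA cells (adjusted p 0.412).

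Zfp574 had 217.9 and 219.1 units in CLA cells at 12 h, against 338.3 and 386.0 in LA cells (log2 −0.72 ± 0.12, adjusted p 0.00298). Its CLA values at 8 h were 211.2 and 241.6, against 275.5 and 261.9 in LA cells, and LA cells were higher at 12 h than at 8 h (log2 0.43, adjusted p 0.0278). Zfp64, a Notch coactivator, had 214.8 and 288.6 units in CLA cells at 12 h, against 434.8 and 382.4 in LA cells (log2 −0.71 ± 0.15, adjusted p 0.0108), and rose 1.62-fold in LA cells between 8 and 12 h (log2 0.69 ± 0.15, adjusted p 0.00918). Neither gene overlapped between the fatty acids at 12 h.

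Zfp593, Zfp707, Zfp646, Zfp618 and Zfp651 were lower in CLA cells as well, with log2 differences of −0.80, −0.80, −0.71, −0.72 and −0.74. Each of Zfp651, Zfp618 and Zfp707 had 2 probe sets of opposite sign: −0.74 and 0.76 for Zfp651, −0.72 and 0.45 for Zfp618, and −0.80 and 0.05 for Zfp707. With arrays scaled to a common median the calls of Zfp707, Zfp646, Zfp618 and Zfp651 were lost. Zfp593 had 166.2 and 153.1 units in CLA cells, against 259.4 and 301.0 in LA cells (adjusted p 0.00956). Among all 269 members, 104 had more than 1 probe set above the filter. Of the 27 members called at 12 h with several probe sets, 22 had the same sign in all of them. For the change from 8 to 12 h in LA cells this held for 22 of 31.

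**Figure D2:**
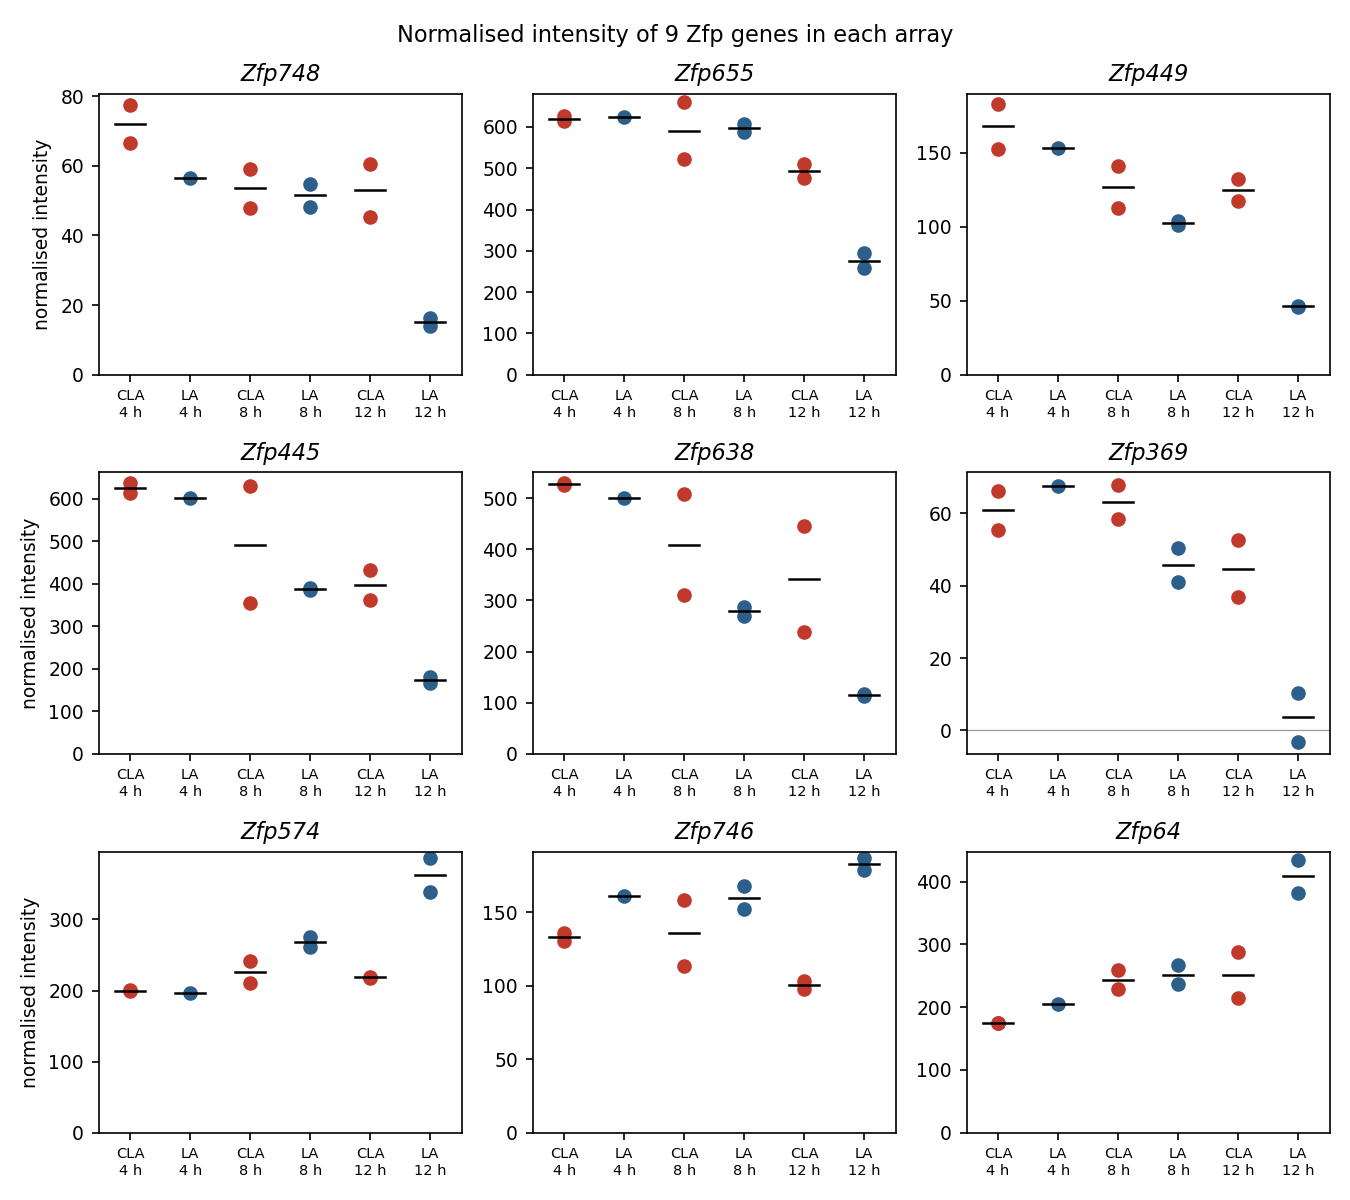
Normalised intensity on each array (points) and group mean (lines) of Zfp748, Zfp655, Zfp449, Zfp445, Zfp638, Zfp369, Zfp574, Zfp746 and Zfp64, by fatty acid and time with CLA left of LA. In the upper 6 genes the LA arrays at 12 h lie below the CLA arrays at 12 h, and in Zfp574, Zfp746 and Zfp64 they lie above them.

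Between 8 and 12 h, 56 members changed in LA cells, 40 of them lower and 16 higher at 12 h. That is 20.8% of the members, against 22.3% of all genes (11.4% lower and 11% higher). With arrays scaled to a common median the split was 40 lower and 5 higher, with median changes of −0.111 for the members and 0.153 for all genes. On values as deposited it was 55 lower and 0 higher, with medians of −0.427 and −0.191. The shares of all genes called under these scalings are not given here. Arrays at 12 and 8 h in LA cells did not overlap for 77 members higher at 12 h (43.9% of all genes) and 95 lower (24.3% of all genes). In CLA cells limma called none of the 269 members, 11 had an unadjusted p under 0.05, and 50 of all genes (0.402%) were called. The CLA arrays were apart for 27 members higher at 12 h (19% of all genes) and 35 lower (14.3% of all genes). Arrays at 12 h in LA cells enter both the comparison with CLA cells at 12 h and this one, so the 2 sets of values are not independent.

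The 40 members lower in LA cells at 12 h had a median log2 change of −1.13 (range −3.32 to −0.41). With arrays below the control level set to it, and without Zfp40, which was at that level in both groups, the median was −1.12 (range −2.04 to −0.41). The same 40 genes had a median change of −0.19 in CLA cells (range −0.82 to 0.24), with 34 below 0 and none called. Because these genes were chosen by their change in LA cells, a smaller one in CLA cells is no test, and 3 of the 40 passed the interaction test. Besides Zfp748 and those described above, Zfp189 had 7.67 and 11.4 units in LA cells at 12 h, against 32.3 and 28.3 at 8 h (adjusted p 0.00839), with 1 of the 2 arrays at 12 h below the control level. The 16 members higher in LA cells at 12 h had a median change of 0.65, and of 0.06 in CLA cells.

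Zfp775, Zfp428, Zfp524 and Zfp579 rose in LA cells between 8 and 12 h by 1.12, 1.005, 0.77 and 0.65 log2 units. Zfp775 had 41.6 and 34.1 units in LA cells at 12 h, against 15.8 and 17.0 at 8 h (adjusted p 0.0254). Zfp428 had 66.4 and 70.4 units at 12 h, against 25.5 and 42.8 at 8 h (adjusted p 0.0414). All 4 had an adjusted p above 0.05 for CLA against LA at 12 h.

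**Figure D3:**
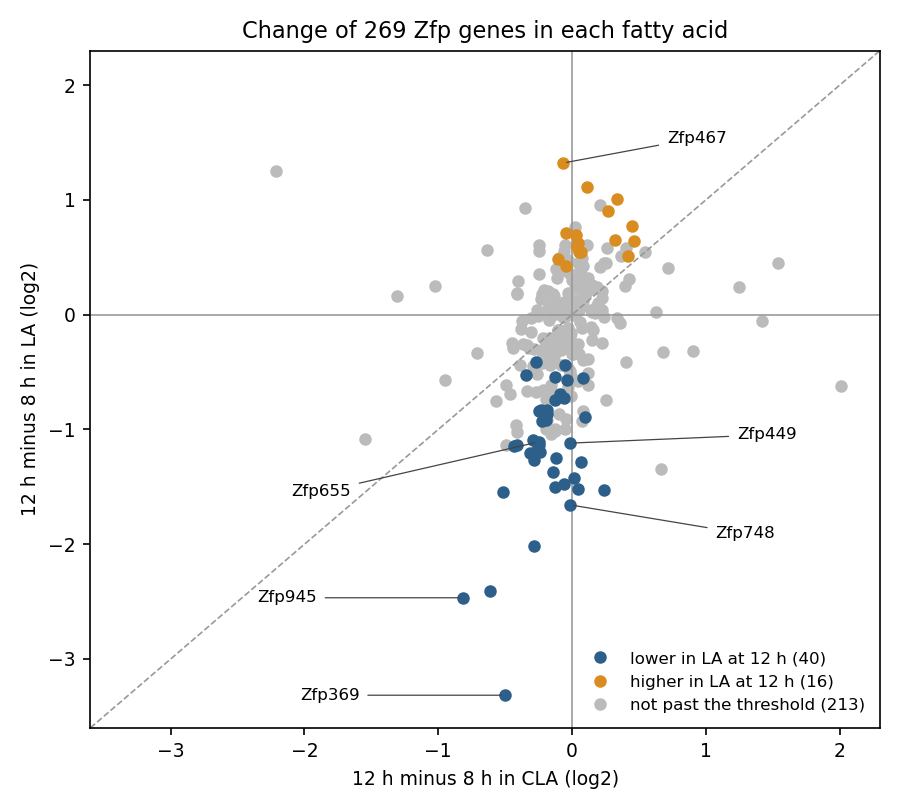
Log2 change of each of the 269 Zfp genes from 8 to 12 h in CLA cells (x axis) and in LA cells (y axis), with 40 genes lower (blue) and 16 higher (orange) in LA cells at 12 h and 213 not past the threshold (grey). Points below the dashed line of equal change had a lower log2 change in LA cells than in CLA cells.

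With the array median as a covariate, 13 of the 56 members remained called in LA cells and all 56 kept their sign, with a median size of 0.70 rather than 0.92 log2 units. The median size of the 3 interaction calls was 0.98 with the covariate, rather than 1.11, and none was called. Leaving out 1 array moved the count between 14 (without LA 8 h replicate 2) and 70, with 23 without LA 8 h replicate 1, 32 without LA 12 h replicate 1 and 30 without LA 12 h replicate 2. At 12 h the CLA against LA count was 25 without either LA array and 26 without CLA replicate 1. The slope of the covariate came only from differences between arrays of the same group, and the LA 12 h arrays had the lowest medians. Array intensity and the LA 12 h group therefore cannot be told apart by this fit. Whether the median intensity of these arrays sets the counts was not tested. Shares of all genes called under these alternatives are not given here.

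Of the 11 members known to act on RNA or proteins, Zfp638, Zfp207 and Zfp451 were higher and Zfp622 was lower in CLA than in LA cells at 12 h. In this short list that is 27.3% higher and 9.09% lower, against 9.46% and 9.33% of all genes. Zfp638, a nuclear RNA- and DNA-binding protein that acts with C/EBP factors during fat cell differentiation, had 446.3 and 237.6 units in CLA cells at 12 h, against 116.4 and 113.7 in LA cells. It was 2.80-fold higher (log2 1.49 ± 0.26, adjusted p 0.00424), and 2.40-fold lower at 12 h than at 8 h in LA cells (adjusted p 0.00751). Zfp638 was spread more widely among CLA replicates than LA replicates at 8 h, with 508.2 and 310.1 units against 270.5 and 287.9 in LA cells. The groups did not overlap at either time.

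Zfp207 (BuGZ), which loads Bub3 on the mitotic spindle, had 1381 and 1110 units in CLA cells at 12 h, against 931.1 and 886.9 in LA cells (log2 0.45 ± 0.12, adjusted p 0.0282). The Zfp207 call was lost in 9 of 23 alternatives, among them arrays scaled to a common median and no filter. Zfp622, needed for maturation of the large ribosomal subunit, had 1200 and 1655 units in CLA cells, against 1744 and 2031 in LA cells (log2 −0.42 ± 0.13, adjusted p 0.0474), a call lost in 16 of 23 alternatives, among them scaling to a common median. Zfp451, whose human counterpart is a SUMO ligase, had 344.4 and 408.2 units in CLA cells, against 233.5 and 280.3 in LA cells (log2 0.55 ± 0.12, adjusted p 0.0134). In LA cells Zfp451 was 1.77-fold lower at 12 h than at 8 h (log2 −0.83 ± 0.12, adjusted p 0.00133), although its 5 probe sets gave changes of −1.21 to 0.00.

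The other 7 of this group had log2 differences between −0.48 and 0.49 at 12 h, with adjusted p of 0.0539 to 0.543. Among these were the dsRNA-binding protein Zfp346 (−0.48, adjusted p 0.0685), Zfp598, which senses collided ribosomes (−0.38, adjusted p 0.0621), and Zfp326 of the DBIRD complex (0.49, adjusted p 0.0539). Tristetraprolin, Zfp36, which promotes decay of AU-rich mRNAs, had −0.14 (adjusted p 0.543).

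The next 6 members have known roles in fat or mesenchymal differentiation, and none of them passed the test at 12 h between the fatty acids (1 had an unadjusted p under 0.05). Zfp467, which favours adipocytes over osteoblasts, had 21.8 and 34.9 units in CLA cells at 12 h, against 56.6 and 57.9 in LA cells (log2 −1.005 ± 0.35, adjusted p 0.0690). The CLA and LA arrays did not overlap, although the 3 probe sets of Zfp467 gave log2 differences of −1 to 0.02 at 12 h. Their changes in LA cells between 8 and 12 h were 0.55 to 1.32, and the call below was lost when they were averaged. Zfp467 rose 2.498-fold in LA cells between 8 and 12 h (log2 1.32 ± 0.35, adjusted p 0.0232), where 8 h arrays held 30.8 and 15.3 units.

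Zfp521, which holds back adipocyte commitment, had 748.5 and 793.1 units in CLA cells at 12 h, against 670.9 and 682.9 in LA cells (log2 0.19, adjusted p 0.142). In LA cells it was 1.33-fold lower at 12 h than at 8 h (log2 −0.41 ± 0.09, adjusted p 0.00753), when it had 905.9 and 892.7 units. In CLA cells the change was −0.27 with a 95% interval of −0.46 to −0.08, and an adjusted p of 0.269. Zfp516, Zfp407, Zfp217 and Zfp395 had log2 differences of −0.31 to −0.10 at 12 h (adjusted p 0.302 to 0.673).

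Of 6 members that maintain imprints or silence retroelements, Zfp445 and Zfp932 were higher in CLA cells at 12 h, 33.3% of a short list against 9.46% of all genes. Zfp445, which protects methylation at imprinted loci, had 433.1 and 360.9 units in CLA cells, against 167.3 and 180.3 in LA cells, 2.26-fold higher (log2 1.18 ± 0.21, adjusted p 0.00404). At 8 h it had 629.6 and 354.9 in CLA cells and 384.2 and 391.1 in LA cells, so its LA arrays lay below every 8 h array at 12 h, 2.22-fold lower than at 8 h in LA cells (adjusted p 0.00367). The 3 probe sets of Zfp445 had the same sign. The difference between the changes in CLA and LA cells was 0.89 (adjusted p 0.176), so it was not shown to differ.

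Zfp932, which silences endogenous retroviruses, had 98.2 and 49.7 units in CLA cells at 12 h, against 23.8 and 28.5 in LA cells (log2 1.36 ± 0.41, adjusted p 0.0392). The Zfp932 call was lost in 11 of 23 alternatives, among them no filter and no intensity trend in the fit. Zfp568, a repressor of the placental Igf2 promoter, was level on all arrays at 204.0 to 271.3 units, with a 12 h difference of −0.02. Zfp57, which also maintains imprints, averaged 11.9 units, close to the control level of 8.89, and Zfp708 averaged 7.96, below it. Zfp809 had a log2 difference of 0.38 (adjusted p 0.223).

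Among 11 other sequence-specific regulators, Zfp292, Zfp148 and Zfp131 were higher in CLA cells at 12 h, 27.3% of a short list against 9.46% of all genes. Zfp292, a regulator of growth hormone gene transcription, had 177.7 and 106.2 units in CLA cells, against 56.7 and 37.8 in LA cells (log2 1.53 ± 0.35, adjusted p 0.0133). Zfp148 (ZBP-89) had 299.6 and 377.3 units in CLA cells, against 147.0 and 193.7 in LA cells (log2 0.99 ± 0.30, adjusted p 0.0441). The Zfp148 call was lost in 9 of 23 alternatives, among them no filter and no intensity trend in the fit. Zfp131, which carries a BTB domain beside its zinc fingers, had 352.9 and 251.2 units in CLA cells, against 179.8 and 175.5 in LA cells (log2 0.74 ± 0.18, adjusted p 0.0186). None of these 3 overlapped at 12 h.

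Zfp281, a regulator of pluripotency, had 557.3 and 325.9 units in CLA cells at 12 h, against 296.5 and 263.4 in LA cells (log2 0.61, adjusted p 0.0577). It fell 2.21-fold in LA cells between 8 and 12 h (log2 −1.14 ± 0.20, adjusted p 0.00338), and its CLA replicates at 12 h were far apart. Zfp292 and Zfp131 also fell in LA cells, by 1.54 and 0.87 log2 units.

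**Figure D4:**
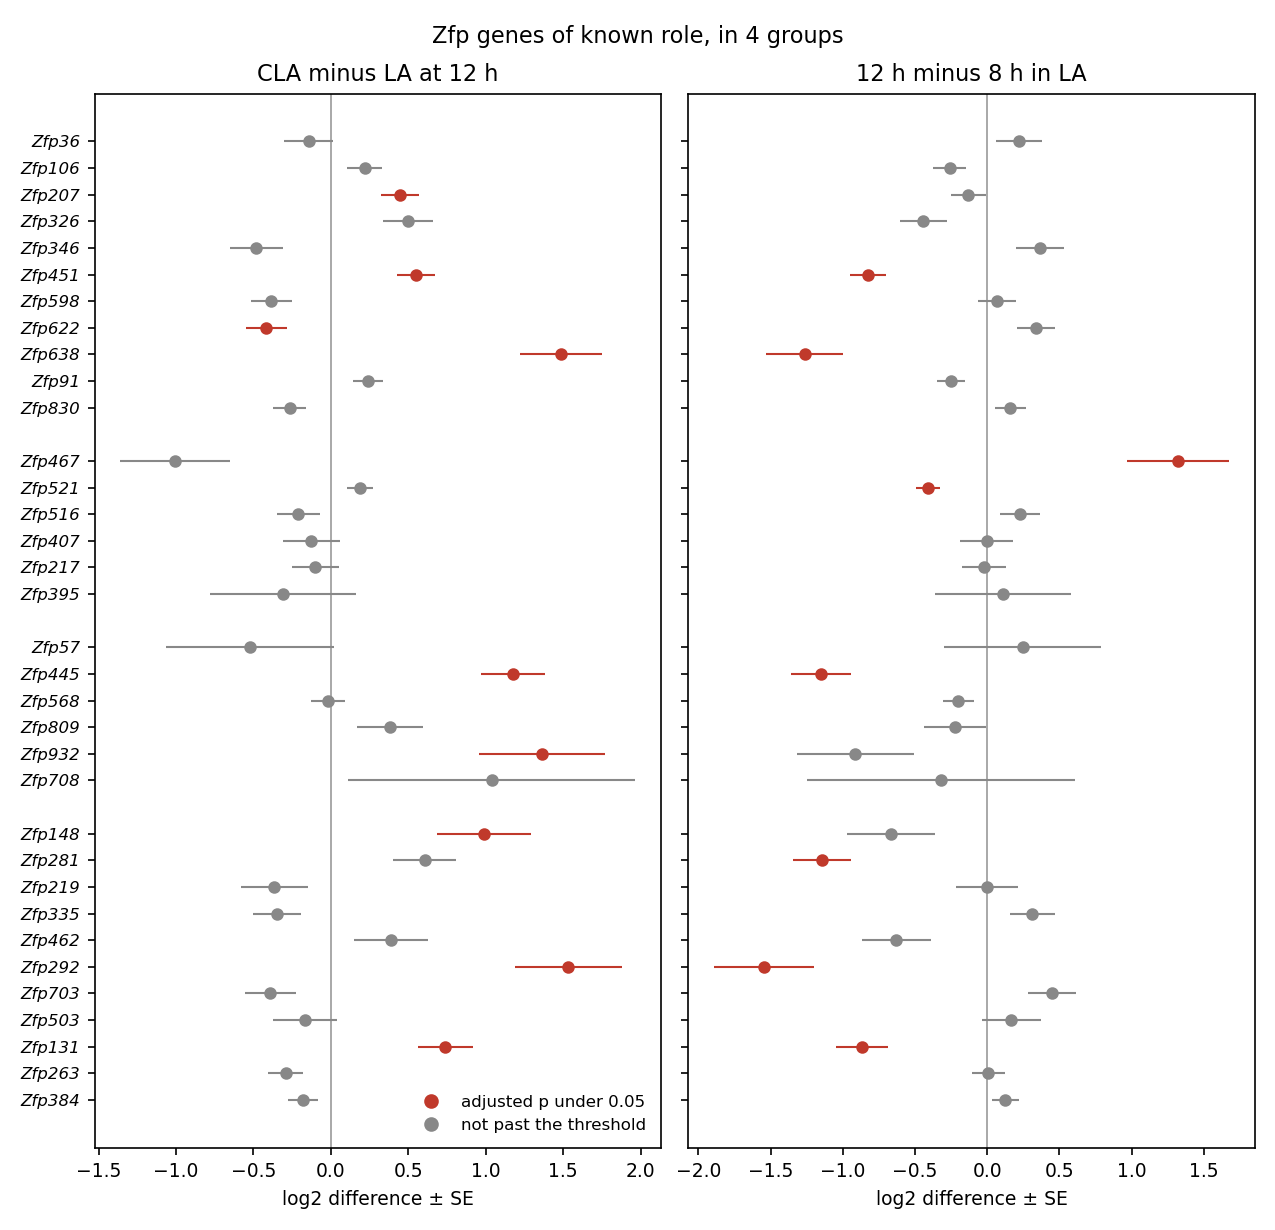
Log2 difference with its standard error for the Zfp genes of known role, in 4 groups from top to bottom, CLA minus LA at 12 h on the left and 12 h minus 8 h in LA on the right; red marks an adjusted p below 0.05. Of the adipocyte and mesenchymal group no gene is red on the left, and on the right Zfp467 is higher and Zfp521 lower.

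Partners of KRAB zinc finger proteins moved in both directions. Of 24 genes, 21 were measured, and at 12 h 4 were higher and 4 lower in CLA cells, 19% each against 9.46% and 9.33% of all genes. Smarcad1, a remodeller linked to KAP1, differed most, at 1.41 ± 0.21 (adjusted p 0.00189), followed by Morc3 (0.58), Cbx5 (0.43) and Hdac2 (0.26). Trim28 itself was lower (−0.28, adjusted p 0.0334), as were Mta1 (−0.49), Rbbp4 (−0.35) and Uhrf1 (−0.50). On values as deposited these 4 were −0.03 (Trim28), −0.05 (Mta1), −0.13 (Rbbp4) and 0.02 (Uhrf1). In LA cells 2 of the 21 were higher (11% of all genes were) and 5 lower (11.4% of all genes) at 12 h than at 8 h. Other families of zinc finger genes showed counts of 7 higher and 3 lower of 36 Zbtb genes, 3 higher and 0 lower of 16 Zscan and Zkscan genes, and 8 higher and 0 lower of 25 Zfp genes whose symbol carries more than digits, in CLA against LA cells at 12 h, where 9.46% of all genes were higher and 9.33% lower.

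Before 12 h few members passed the test. At 4 h, with a single LA array, 124 members lay higher in CLA cells without overlap (34.6% of all genes) and 87 lower (41.2% of all genes). At 4 h 1 member of 269, 0.372%, was called against 0.298% of all genes (37 genes): Zfp691, with 46.5 and 33.9 units in CLA cells against −3.76 on the single LA array, at least 3.88-fold higher (adjusted p 0.00913). With 1 LA array at 4 h, that p assumes the array varies as the other groups do. The other arrays held 17.5 to 58.5 units of Zfp691, so the LA 4 h array was the low one. The call was lost without CLA 4 h replicate 1, and in the authors' deposited table the log2 ratio was 0.29 (adjusted p 0.9998). Zfp251 and Zfp87 came next, with log2 differences of −0.85 and −0.81 (adjusted p 0.109 for both).

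At 8 h limma called no member and no other gene, and the authors' deposited table, whose p-values were adjusted in the same way, called no member either. CLA and LA arrays at 8 h were apart for 28 members with CLA higher (9.64% of all genes) and 37 with CLA lower (21.3% of all genes). Of the members 4 had an unadjusted p under 0.05, and 491 of all genes did. The smallest p belonged to Zfp526 (−1.58 ± 0.50, adjusted p 0.986), with 3.49 and 6.09 units in CLA cells and 13.3 and 23.0 in LA cells, near the control level. In CLA cells between 8 and 12 h the smallest p belonged to Zfp521.

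Averaged over the 3 times, 14 members were higher (4.14% of all genes were) and 4 lower (3.02% of all genes) in CLA cells, together 6.69% of the members against 7.16% of all genes. With arrays scaled to a common median, where the median difference was 0.0763 for the members and −0.0684 for all genes, 16 were higher and 0 lower. Shares of all genes called under this scaling, or without 1 array, are not given here, so these counts cannot be set against them. Zfp748 (0.69, adjusted p 0.0236), Zfp638 (0.69, adjusted p 0.0358) and Zfp449 (0.61, adjusted p 0.0164) are among the higher members. An averaged difference need not hold at every time. The Zfp638 average drew most on the 12 h arrays (log2 1.49), and less on those of 8 h (0.51) and 4 h (0.07). Fatty acids overlapped on the 8 h arrays of Zfp748, but not on those of Zfp449. The 4 h part of each average rests on a single LA array. The 8 h arrays of Zfp229 held 73.2 and 41.2 units in CLA cells and 41.5 and 39.3 in LA cells, and its 12 h arrays 49.5 and 46.1 in CLA cells and 21.2 and 19.9 in LA cells (averaged log2 0.70, adjusted p 0.0306). Of the lower ones, Zfp513 was apart at each time. It had 115.8 and 104.3 units in CLA cells at 4 h and 138.3 in LA cells. CLA cells then had 127.6 and 129.6 units at 8 h where LA cells had 150.6 and 148.6, and 129.8 and 142.3 at 12 h where LA cells had 179.9 and 177.7 (averaged log2 −0.31, adjusted p 0.0420). Without 1 array the averaged count ranged from 0 to 72.

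Zfp genes lie in runs along the chromosomes, and 139 members were next to another Zfp gene in RefSeq order. Of these 14 were higher and 5 lower in CLA cells at 12 h, with a median log2 difference of 0.19, while of the 130 others 25 were higher and 7 lower, with a median of −0.03; of all genes 9.46% were higher and 9.33% lower. On chromosome 17 all 7 measured genes from Zfp760 to Zfp994 were above 0 (median 0.79), with Zfp760 (1.28, adjusted p 0.0331) and Zfp229 (1.15, adjusted p 0.0124) called, and all 7 from Zfp677 to Zfp983 were above 0 (median 0.77), with Zfp53 called (0.77, adjusted p 0.0499). On chromosome 6 none of 6 from Zfp786 to Zfp746 was above 0 (median −0.44), and Zfp746 and Zfp212 (−0.61, adjusted p 0.00844) were called. In the chromosome 6 run and the run from Zfp760 to Zfp994 the common sign holds for the brightest probe sets only. In the chromosome 6 run Zfp398 had −0.002 there but up to 2.15 in another probe set, and Zfp282 had −0.35 but also 0.448. In the run from Zfp760 to Zfp994, Zfp943 had 0.717 but −0.914 in another probe set. Runs without a common sign were Zfp84 to Zfp146 on chromosome 7, with 6 of 12 above 0 (median 0.05, 1 called higher and 1 lower), Zfp180 to Zfp94 on chromosome 7, with 3 of 7 above 0 (median −0.18), and Zfp455 to Zfp459 on chromosome 13, with 4 of 5 above 0 (median 0.74), the last 2 with no call. Neighbouring copies can share probe sequence: 21 members were read by probe sets the maker marks as matching several transcripts, 5 of them among the 51 called. No test set these runs against other genes.

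**Figure D5:**
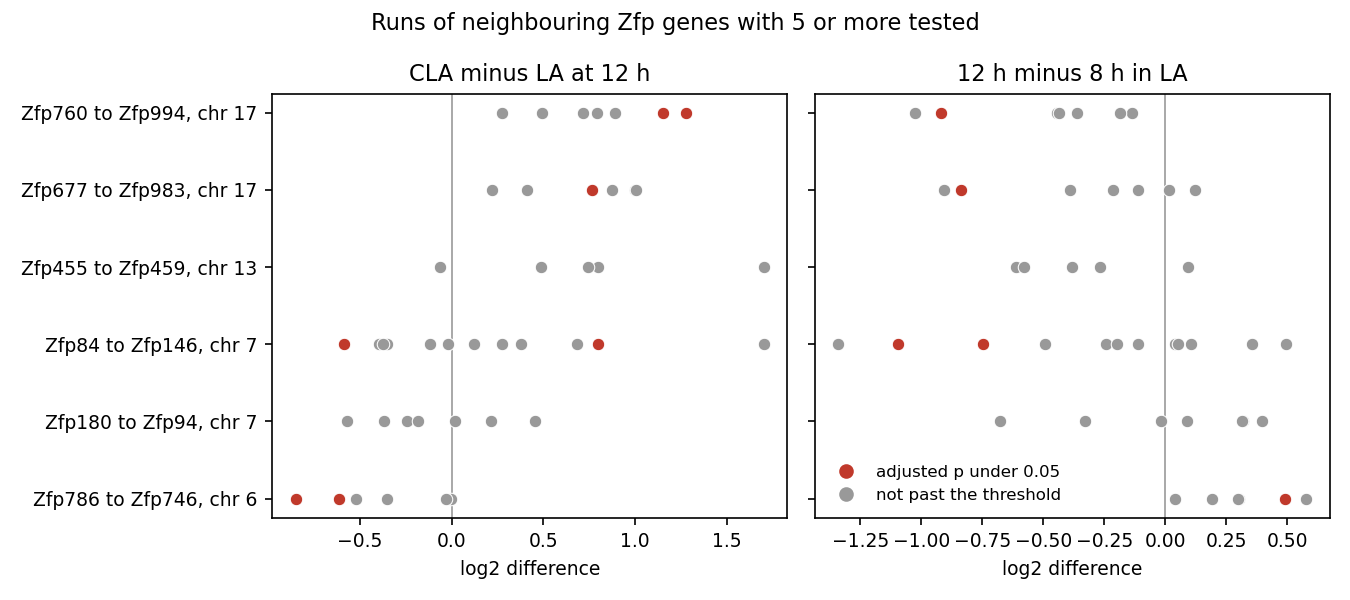
Log2 difference of each Zfp gene in the 6 runs of adjacent Zfp genes with at least 5 measured members, CLA minus LA at 12 h on the left and 12 h minus 8 h in LA on the right; red marks an adjusted p below 0.05. Read through their brightest probe sets, all 14 genes of the 2 chromosome 17 runs lie above 0 and all 6 of the chromosome 6 run lie below it in the left panel.

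RefSeq promoters of 300 bases, from 250 before to 50 after the start site, were found for 224 of the 269 members (277 windows), and compared with 32851 windows of 27025 genes. Their windows held a median of 16 CpG dinucleotides, against 7 over all windows. The ETS core CCGGAAG, searched on both strands, was in 20.2% of the members' windows and 8.86% of all windows and TATAAA in 7.22% and 13.6%. Of the 38 windows of members lower in LA cells at 12 h, 26.3% held the ETS core and 57.9% a CCAAT box, against 20.2% and 45.1% of all members' windows. A match is a description of the letters and not a binding site.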

How the data were processed

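Each array file deposited by the authors held 1 intensity per probe set. The authors' comparison tables held a ratio, the log10 ratio and p-values, and per the file headers Rosetta Resolver wrote them. Which fatty acid is on top of that ratio is not stated there, and CLA was taken to be, from the correlation of its log with CLA minus LA here (r 0.651, 0.677 and 0.819 at 4, 8 and 12 h). The intensities deposited by the authors are 1-colour, 45101 probe sets with 64 array controls, and 18.7% to 21.5% of values on an array were at or below 0. From these, values were quantile normalised between arrays, and negative values were set to 0 for the fit (they are printed as they stand). Then 1.84 was added (the 25th percentile of levels) and log2 was taken. Fitted differences of dim genes depend on these steps and can exceed those with arrays below the control level set to it. At 12 h, CLA minus LA was 2.91 fitted and 0.36 by that rule for Zfp40, and 3.27 and 2.00 for Zfp369. Gene names came from the platform annotation: 34958 probe sets had 1 symbol, 932 several and 9147 none, and 34754 Entrez identifiers matched the reference table. Probe sets whose mean level was above the 40th percentile of all values were kept (26629), and the brightest per gene gave 12428 genes.

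limma 3.58.1 in R 4.3.3 fitted 1 mean per group (5 residual degrees of freedom, 6.1 prior), with a mean-intensity trend and Benjamini-Hochberg adjustment at 0.05. The fit was also run on simulated data, whose outcome is not given here. Replicate numbers were not used as pairs: none of 10 same-number correlations exceeded 0.1 (range −0.04 to 0.07). Genes were named by a rule: the 8 called members furthest from 0 in each direction whose arrays do not overlap, the 5 with the smallest p where fewer than 5 were called, and members of role lists. The members and lists were chosen with earlier results of these data known. A split by KRAB domain was not run, as no protein sequences were used here. Alternatives covered scaling, offset, filter, probe-set choice, test settings, single arrays and the deposited ratios.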

Additional observations from a re-analysis of the deposited data

Results flagged for a closer look

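Zfp748, Zfp655 and Zfp449 were picked out because their change between 8 and 12 h differed between CLA and LA cells by an interaction term in limma. The difference of the changes was 1.64 ± 0.32 for Zfp748 (adjusted p 0.0440), 0.86 ± 0.17 for Zfp655 (adjusted p 0.0445) and 1.10 ± 0.23 for Zfp449 (adjusted p 0.0460), with n = 2 arrays in each of the 4 groups compared. Groups of 1 or 2 arrays were too small to be searched for single arrays far from the rest.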

How the results depend on the processing

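Counts of called members at 12 h (51) were 28 with no filter, 30 from the compared arrays alone and 1 with the array median as a covariate, chosen after seeing the data. In LA cells between 8 and 12 h (56) they were 32 with no filter and 13 with the covariate. The averaged count (18) was 0 on values as deposited, with no filter or with no intensity trend, 8 when probe sets of a gene were averaged or with the covariate, and 29 above the 60th percentile. The interaction count (3) was 6 after scaling arrays to a common median, 1 with an offset of 16, and 0 on values as deposited, with no filter, no trend, the mean of probe sets, the compared arrays alone or the covariate. The 4 h count (1) was 0 with an offset of 16, no filter, no trend, the compared arrays alone or the covariate, and 2 by the authors' deposited p-values. Leaving out each array in turn gave 25 to 70 calls at 12 h, 14 to 70 in LA cells, 0 to 72 averaged, 0 to 22 for the interaction, 0 to 1 at 4 h and in CLA cells, and 0 at 8 h. The cause of these moves was not tested, and shares of all genes called under these alternatives are not given here.

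With a replicate block shared by all times the counts were 61 at 12 h, 61 in LA cells and 31 averaged, and with a replicate block within each time 66 at 12 h, 29 averaged and 3 at 4 h; same-numbered arrays did not deviate together.

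On values as deposited the median log2 difference at 12 h was 0.28 for all genes and 0.58 for the members, against −0.15 and 0.09 after quantile normalisation, and the split of calls was 76 higher and 0 lower, against 39 and 12. After scaling to a common median the split was 44 and 5, with medians of −0.173 for all genes and 0.125 for the members. In LA cells the splits were 0 higher and 55 lower as deposited and 5 and 40 at a common median, against 16 and 40. There the median change of all genes was −0.191 as deposited and 0.153 at a common median, against 0.13 after quantile normalisation. Shares of all genes called under these scalings are not given here. None of the 51 or 56 called members changed sign under the 3 other scalings. When probe sets of a gene were averaged, Zfp651 was reversed, at 0.010 at 12 h and −0.64 in LA cells. Of 6409 values of named genes under the alternatives, 5534 kept their direction and their side of the threshold, 493 lost the call, 89 gained one and 291 uncalled values changed sign. With 2 arrays a group, and 1 in LA cells at 4 h, the number of arrays limits precision, and dim members near the control level are the least certain.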
